A study of Mus musculus with 6 samples.

Results

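The enzymes that turn arachidonic acid into leukotrienes and prostaglandins were examined in eosinophils sorted from the stromal vascular fraction (SVF) of subcutaneous adipose tissue (subcut AT). The set holds 10 genes, namely Pla2g4a, Alox5, Alox5ap, Lta4h, Ltc4s, Ptgs1, Ptgs2, Hpgds, Ptges and Tbxas1, chosen by name. A gene was measured where the platform annotation tied a probe set to its symbol and to no other, which held for 9 of the 10, with 13 probe sets in all. These 9 are among 17097 genes measured in that way. Ptgs1, the constitutive cyclooxygenase, had no such probe set in the annotation used here and was not analysed. Where a gene had several probe sets, the brightest stood for the gene and the others are given beside it.

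The study asked how loss of the transcriptional repressor KLF3 alters gene expression in adipose eosinophils. There were 3 wild type (WT) and 3 Klf3-/- mice, and 1 array was run for each mouse. All were male littermates on the FVB/NJ strain, aged 12 weeks, kept at 22 °C on standard chow and given no treatment. The Klf3-/- mice carry a global knockout, so every cell type of these animals lacks KLF3, and they came from crosses between heterozygotes. Sorted cells were live CD45+ CD11b+ F4/80+ Siglec-F+ with high side scatter.

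Cytosolic phospholipase A2 (Pla2g4a) frees arachidonic acid from membrane phospholipids. In the 5-lipoxygenase arm, Alox5 and its activating protein Alox5ap make leukotriene A4, which Lta4h hydrolyses to the neutrophil attractant leukotriene B4 and Ltc4s joins to glutathione to give the cysteinyl leukotrienes. In the cyclooxygenase arm, Ptgs1 and Ptgs2 make prostaglandin H2, which terminal synthases convert to prostaglandin D2 (Hpgds), prostaglandin E2 (Ptges) or thromboxane A2 (Tbxas1). Eosinophils are known for making cysteinyl leukotrienes, mast cells for prostaglandin D2, and macrophages and fibroblasts for prostaglandin E2.

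The deposited intensities were linear and on no common scale, with array medians from 30.3 to 58.7, so log2 values were quantile-normalised between arrays. Levels below are normalised log2 intensities, called log2 units, and a level of 1 gene says nothing of the level of another. Background was taken as 5.10 log2 units, the 95th percentile of 44 olfactory receptor probe sets, genes that sorted blood cells should not use. Of 8 eosinophil markers measured, 6 lay below that level on average, among them Siglecf, which encodes a protein the cells were sorted on. Ccr3, Epx, Il5ra and Prg2 were also among the 6. Csf2rb, which other myeloid cells also express, lay well above that level. Prg3 averaged above it in WT and below it in Klf3-/-, though WT mouse 2 (4.64) lay below the level and Klf3-/- mouse 1 (5.50) above it. All 12 macrophage markers and 7 of 8 mast cell markers lay above it, so the arrays also carried RNA of genes that other cells use, and the word eosinophils stands here for the sorted samples. In such bulk samples a smaller number of cells of 1 type and less RNA per cell cannot be told apart. Klf3 was read by 6 probe sets with log2 fold changes from -1.01 to 2.83, of which 5 were higher and 1 lower in every Klf3-/- array. They do not check the genotype, since no source used here says how each of them lies to the disrupted part of the gene.

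Ptges was the enzyme with the largest difference between genotypes among the 9. It encodes microsomal prostaglandin E synthase-1, the inducible terminal enzyme of prostaglandin E2 synthesis. Its brightest probe set read 5.38, 5.81 and 4.98 log2 units in WT mice 1 to 3 and 7.14, 8.36 and 5.69 in Klf3-/- mice 1 to 3. The values of Klf3-/- mice 1 and 2 lay above every WT value, and that of Klf3-/- mouse 3 lay just under WT mouse 2, so the genotypes overlapped. WT arrays averaged 5.39 ± 0.42 and Klf3-/- arrays 7.06 ± 1.34 (SD, n = 3 each). The means differed by 1.67 log2 units (standard error 0.62, 95% interval 0.20 to 3.14), or 3.19-fold. Its unadjusted p in limma was 0.0309 and its adjusted p over all probe sets was 0.868, so the difference did not pass. In an exact permutation test (two-sided) p was 0.2, where 0.1 is the smallest p that 3 mice against 3 allow.

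The remaining Ptges probe sets pointed the same way. The second read 4.87, 5.53 and 5.37 in WT mice 1 to 3 and 5.64, 7.61 and 6.10 in Klf3-/- mice 1 to 3, with no overlap and a log2 fold change of 1.19 (unadjusted p = 0.0456, adjusted p = 0.901, limma). The third, which lay below the background level in every WT mouse and in Klf3-/- mice 1 and 3, read 4.56, 4.35 and 3.77 in WT and 4.62, 6.75 and 4.79 in Klf3-/-, a log2 fold change of 1.16 (adjusted p = 0.910, limma). Klf3-/- mouse 2 was the highest array in all 3 probe sets, and they read 1 gene, so they are no independent replicates. As deposited, the brightest probe set gave intensities of 35.7, 75.5 and 23.3 for WT against 156, 511 and 42.1 for Klf3-/-, and the genotypes overlapped in each of the 3 probe sets.

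**Figure D1:**
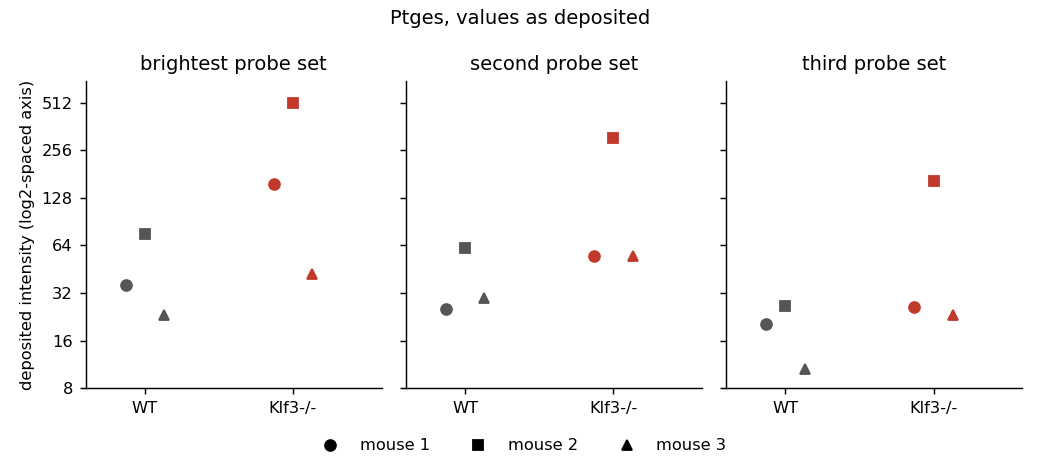
Deposited intensity of the 3 Ptges probe sets (linear intensity on an axis spaced by log2), 1 point per mouse, WT in grey and Klf3-/- in red, with the marker shape giving the mouse number. Klf3-/- mouse 2 is the highest point in each panel, at 511 in the brightest probe set.

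The size of the Ptges difference rested in part on Klf3-/- mouse 2. Without that array the log2 fold change was 1.01, and without Klf3-/- mouse 3 it was 2.39, so it stayed positive whichever array was left out. The unadjusted p was above 0.05 without WT mouse 1 (0.0686), WT mouse 3 (0.0921), Klf3-/- mouse 1 (0.0714) or Klf3-/- mouse 2 (0.0723). Set against the WT mouse of the same number, Klf3-/- mice 1 to 3 read 1.76, 2.54 and 0.71 log2 units higher, and Ptges was the only enzyme of the 9 whose 3 pairs went one way. With the replicate number as a block its unadjusted p was 0.00591 and its adjusted p 0.578 in limma. In a two-way analysis of variance with that block and without moderation its unadjusted p was 0.0882. Whether arrays of the same number are paired was not settled, which limits the pair and block values here and below.

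KLF3 binds CACCC boxes in DNA through its zinc fingers, so the promoters were searched for CACCC on either strand (GGGTG on the strand shown). RefSeq promoter windows on GRCm38.p6, cut to the 250 bases before the start site, were at hand for 9 of the 10 enzymes, Alox5ap having none in the table used, and Pla2g4a having 1 for each of 2 start sites. For Ptges, Ptgs1, Hpgds and Tbxas1 the start site of the window lay inside the annotated gene and not at its outermost 5′ end. The annotated Ptges gene spans chr2:30889471-30931020. Over 32851 such windows, 52.0% held at least 1 CACCC, 2.14% at least 4 and 0.667% at least 5. The Ptges window held 5, starting at -136, -129, -66, -57 and -36 from the start site. The Ltc4s window held 4, that of Lta4h 2 and 1 of the Pla2g4a windows 1, while those of Alox5, Ptgs1, Ptgs2, Hpgds and Tbxas1 held none. A second motif, CCNCNCCC with N for any base, was counted in the same way. It matched 5 times in the Ptges window, 2 times in that of Ltc4s and 1 time in that of Lta4h. This motif was commoner at high counts, with at least 5 matches in 6.81% of all windows and at least 2 in 27.3%. The windows shown are those for the enzyme with the largest difference (Ptges, chr2:30903298-30903547, minus strand), for the enzyme with the next highest count of boxes (Ltc4s, chr11:50238533-50238782, minus strand) and for the cyclooxygenase upstream of Ptges (Ptgs2, chr1:150099781-150100030, plus strand). Each runs 5′ to 3′ along the gene, with capitals marking CACCC or GGGTG. A match is a string of letters and not a bound site, and KLF3 binding was not measured here.
Ptges: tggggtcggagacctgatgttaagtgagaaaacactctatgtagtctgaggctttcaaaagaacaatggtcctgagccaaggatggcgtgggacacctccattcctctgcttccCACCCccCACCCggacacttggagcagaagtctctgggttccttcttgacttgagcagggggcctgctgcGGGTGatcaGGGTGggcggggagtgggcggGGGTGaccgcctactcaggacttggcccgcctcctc
Ltc4s: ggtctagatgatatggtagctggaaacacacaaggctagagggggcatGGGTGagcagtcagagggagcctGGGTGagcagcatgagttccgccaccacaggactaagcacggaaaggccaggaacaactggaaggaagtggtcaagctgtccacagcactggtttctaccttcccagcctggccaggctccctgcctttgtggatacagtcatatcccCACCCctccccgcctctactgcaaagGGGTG
Ptgs2: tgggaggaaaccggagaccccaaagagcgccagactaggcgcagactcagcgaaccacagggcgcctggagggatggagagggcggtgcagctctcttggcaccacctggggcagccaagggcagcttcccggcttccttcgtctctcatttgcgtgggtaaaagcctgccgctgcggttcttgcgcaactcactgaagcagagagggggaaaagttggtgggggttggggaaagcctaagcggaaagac

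The other measured genes of the cyclooxygenase arm differed by less than the spread between mice. Ptgs2, the inducible cyclooxygenase, read 9.11, 9.57 and 8.22 log2 units in WT mice 1 to 3 and 9.67, 9.11 and 7.76 in Klf3-/- mice 1 to 3. Mouse 3 was the lowest of each genotype. The log2 fold change was -0.12 (standard error 0.54, 95% interval -1.39 to 1.15, adjusted p = 0.990, limma). A dimmer Ptgs2 probe set gave 0.13 and the same order of arrays within WT, with 6.51 in WT mouse 2 and 4.31 in WT mouse 3.

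Hpgds, the haematopoietic prostaglandin D synthase, read 8.45, 7.65 and 7.11 in WT and 7.07, 7.28 and 8.03 in Klf3-/- mice 1 to 3. The ranges overlapped almost wholly, with a log2 fold change of -0.28 (standard error 0.40, 95% interval -1.22 to 0.66, adjusted p = 0.969, limma), which was 0.08 without WT mouse 1. Tbxas1, the thromboxane synthase, read 7.72, 7.39 and 7.64 in WT and 7.51, 7.35 and 8.28 in Klf3-/-. Its log2 fold change was 0.13 (standard error 0.28, 95% interval -0.53 to 0.78, adjusted p = 0.977, limma) and -0.16 without Klf3-/- mouse 3, the only array above the WT range. These intervals still allow differences of over 1 log2 unit for Ptgs2 in either direction and for Hpgds downward.

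In the 5-lipoxygenase arm the means of 3 of 4 genes were higher in Klf3-/- eosinophils, as was that of Pla2g4a upstream of both arms, and none passed. Pla2g4a read 6.35, 6.56 and 6.26 log2 units in WT mice 1 to 3 and 6.26, 7.04 and 7.23 in Klf3-/- mice 1 to 3, so Klf3-/- mice 2 and 3 lay above the WT range and mouse 1 at its lower end. The log2 fold change was 0.45 (standard error 0.28, 95% interval -0.21 to 1.12, adjusted p = 0.918, limma). Alox5 read 6.48, 6.22 and 6.79 in WT and 6.08, 6.97 and 8.05 in Klf3-/-, so Klf3-/- mice 2 and 3 again lay above the WT range, and mouse 1 lay below it. Its log2 fold change was 0.54 (standard error 0.47, 95% interval -0.57 to 1.65, adjusted p = 0.953, limma). Without Klf3-/- mouse 3 it was 0.03, and without Klf3-/- mouse 1 it was 1.02. With Klf3-/- mouse 1 left out, Alox5 and Pla2g4a (0.75) were the 2 enzymes at an unadjusted p under 0.05.

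Alox5ap, which presents arachidonic acid to 5-lipoxygenase, read 8.88, 9.77 and 9.06 in WT and 8.92, 9.52 and 10.19 in Klf3-/-. The log2 fold change came to 0.31 with a standard error of 0.38 (adjusted p = 0.963, limma) and to -0.02 without Klf3-/- mouse 3, the only array above the WT range. Ltc4s lay near the background level, with 4.43, 5.61 and 4.56 in WT and 5.04, 4.85 and 6.29 in Klf3-/-. Only WT mouse 2 and Klf3-/- mouse 3 lay above that level, and the difference of 0.53 log2 units, with a standard error of 0.47 (adjusted p = 0.953, limma), was 0.08 without Klf3-/- mouse 3. Lta4h was the steadiest of the arm, with 8.70, 8.01 and 8.30 in WT and 8.62, 8.20 and 8.15 in Klf3-/-. The difference was -0.01 log2 units with a standard error of 0.25 (adjusted p = 0.998, limma), and the 95% interval of -0.59 to 0.57 bounds a difference to under 1 log2 unit either way. A dimmer Lta4h probe set, below the background level in all 6 arrays, gave -0.24.

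**Figure D2:**
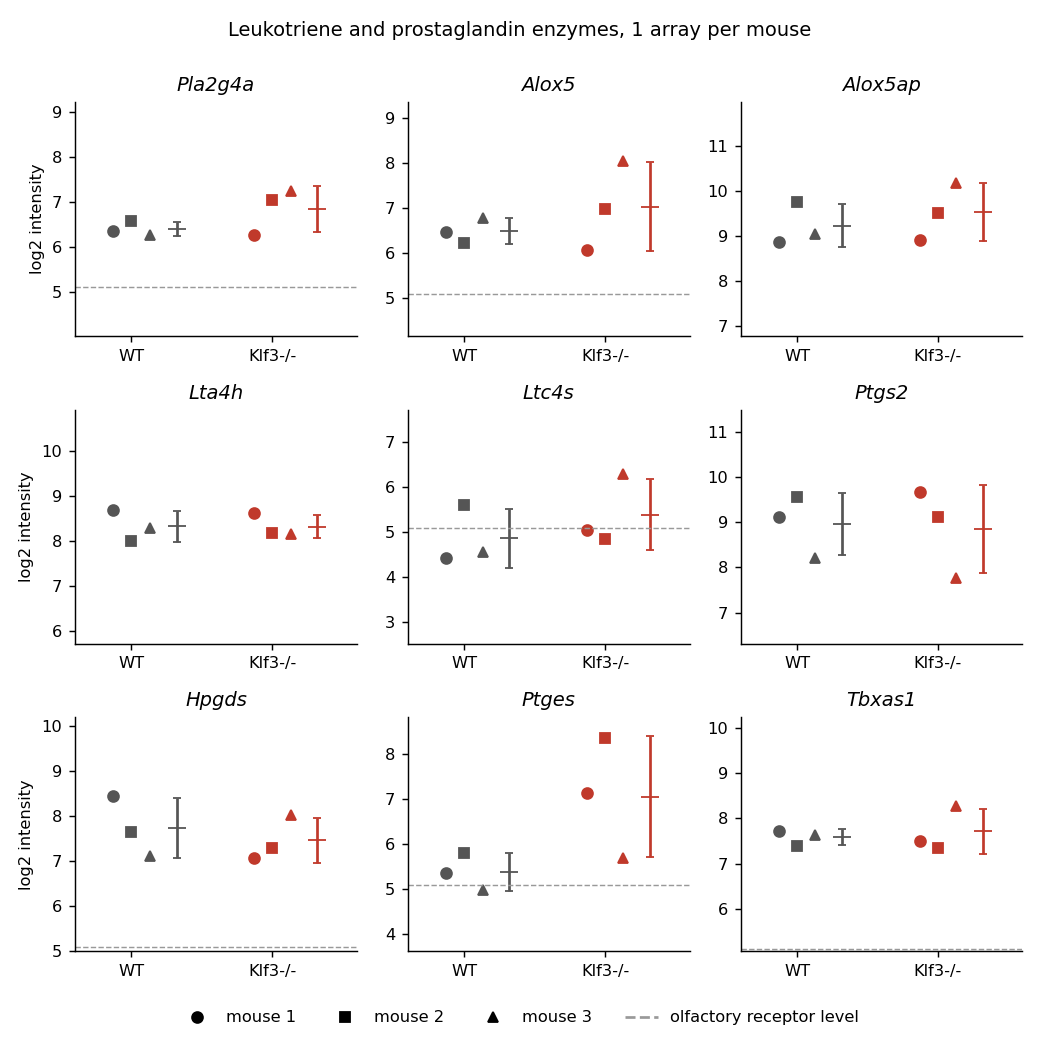
Normalised log2 intensity of the 9 measured enzymes, 1 point per mouse, WT in grey and Klf3-/- in red, with bars for mean ± SD (n = 3) and a dashed line at the background level of 5.10 where it falls within the panel. All panels span the same number of log2 units. Ptges separates Klf3-/- mice 1 and 2 from WT, and Klf3-/- mouse 3 is the highest array for Alox5, Alox5ap, Ltc4s, Tbxas1 and Pla2g4a.

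Over the 9 enzymes the median log2 fold change was 0.31, with 6 higher and 3 lower, where the median over all 17097 genes was -0.04 and 44.8% of genes were higher. That median of 0.31 was 0.07 without Klf3-/- mouse 3 and 0.62 without Klf3-/- mouse 1. None of the 9 passed an adjusted p under 0.05, a rule that called 0% of the 45037 probe sets. At an unadjusted p under 0.05 Ptges was the 1 gene of 9 called (11.1%), where that rule called 6.09% of genes and 5.50% of probe sets. None of the 9 was without overlap between genotypes in its brightest probe set, where 11.4% of genes were. With so few genes the count of 1 is near what the background gives for 9 genes, and it is not a result about the enzymes as a set.

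**Figure D3:**
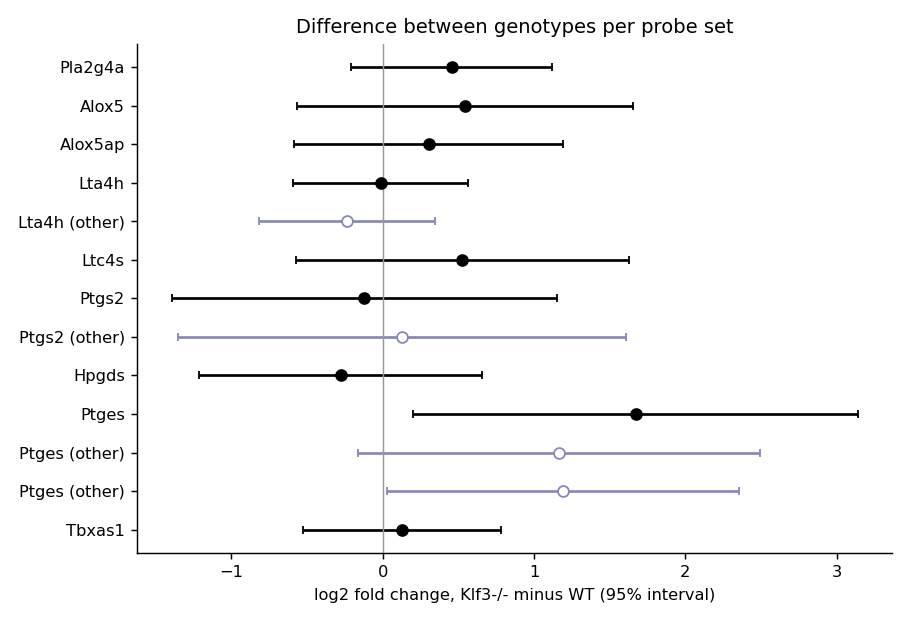
Log2 fold change of each of the 13 probe sets, Klf3-/- minus WT, with 95% intervals from limma that are not adjusted for the number of probe sets. Filled points are the brightest probe set of a gene and open points the others. The interval of the brightest Ptges probe set runs from 0.20 to 3.14, and those of all other genes include 0.

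The enzymes varied more among Klf3-/- mice than among WT mice in 7 of 9 cases, where this held for 49.5% of all genes. Klf3-/- mouse 3 was the highest of the 6 arrays for 5 of the 9 enzymes, and it was the highest for 18.0% of all genes. The list of 12 macrophage markers was also highest in that array. Its summed linear intensity was 19433, 9773 and 16957 in WT mice 1 to 3 and 13758, 14294 and 29366 in Klf3-/- mice 1 to 3. Of the platelet markers, Pf4, which resident macrophages also express, read 12.02 in Klf3-/- mouse 3 and 9.65 to 10.92 elsewhere, while the platelet list as a whole had 3 of 6 measured genes above the background level. Besides Pf4 these were Itga2b, at 5.41 to 5.80 in the 6 arrays and lowest in Klf3-/- mouse 3, and Gp9, whereas Ppbp, Gp1bb and Treml1 lay below the level in every array. The part of macrophage or platelet RNA in the values of Alox5, Alox5ap, Ltc4s, Tbxas1 and Pla2g4a was not tested.

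Mast cell markers differed widely between mice of both genotypes. All 8 were measured, and their summed linear intensity was 449, 4111 and 813 in WT mice 1 to 3 and 1400, 8501 and 742 in Klf3-/- mice 1 to 3. Cpa3, a mast cell carboxypeptidase, read 7.27, 9.70 and 8.08 in WT and 8.88, 11.24 and 8.33 in Klf3-/-. Mouse 2 was thus the highest of each genotype, and Klf3-/- mouse 2 was also highest for Ptges. Hpgds was highest in WT mouse 1, where the mast cell sum was lowest. The sums of 12 stromal fibroblast and preadipocyte markers were 10723, 13326 and 17897 in WT mice 1 to 3. They were 17649, 28513 and 19882 in Klf3-/- mice 1 to 3, with the highest again in Klf3-/- mouse 2. Ptges was lowest in WT mouse 3, where the stromal sum was the highest of the WT arrays. Of the 12 stromal markers 11 were higher in Klf3-/-, where 44.8% of all genes were, and Pdgfrb was lower (-0.10). At an unadjusted p under 0.05 in limma 5 were called, where 6.09% of all genes were. Among them was Dpt, which read 7.90, 9.06 and 8.62 in WT and 10.07, 11.25 and 9.85 in Klf3-/- (adjusted p = 0.736, limma). Col3a1 (0.30) and Dcn (0.71), the brightest of the list, overlapped between the genotypes. The part of stromal and mast cell RNA in the Ptges and Hpgds values was not tested.

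The eosinophil list summed to 1117, 1025 and 1026 in WT mice 1 to 3 and 874, 764 and 848 in Klf3-/- mice 1 to 3, with no overlap, and Csf2rb made up most of it. The dendritic cell list did not overlap either, at 6129 to 9533 in WT and 4375 to 5808 in Klf3-/-. H2-Ab1 made up most of that sum, and on its own it overlapped between the genotypes. The neutrophil, endothelial and lymphocyte lists overlapped between the genotypes, and so did the platelet list. The part of these lists in the values of the enzymes was not tested.

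**Figure D4:**
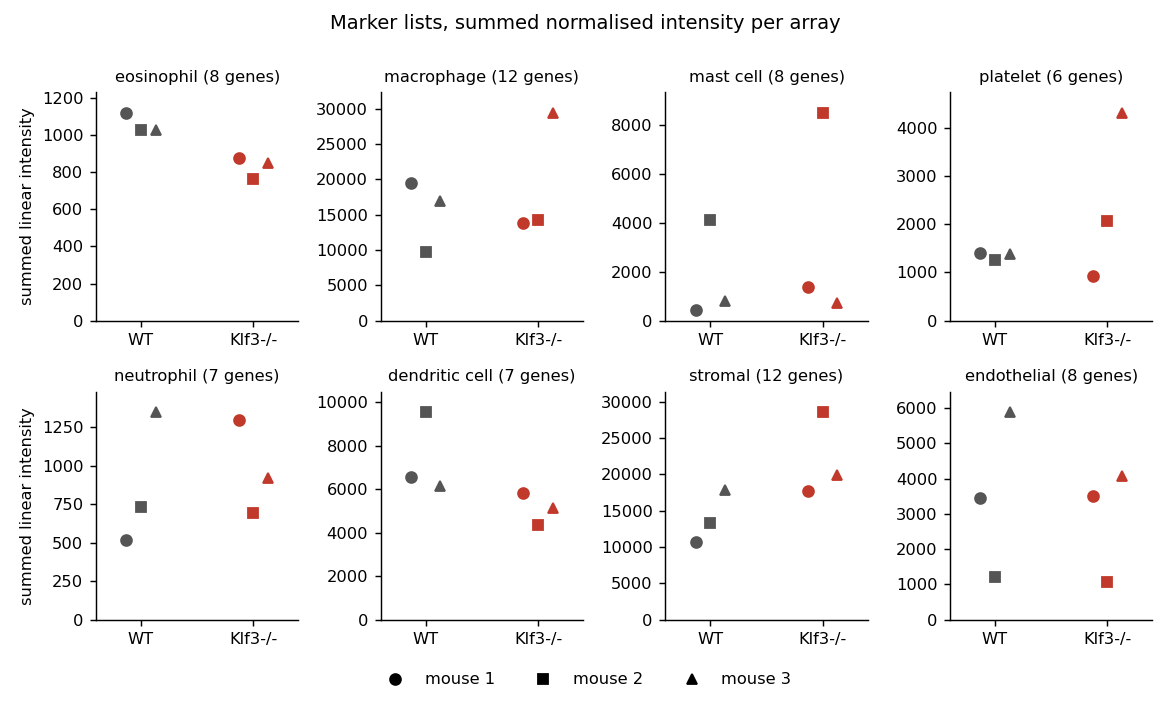
Summed normalised intensity (linear scale, axes from 0) of 8 marker lists, 1 point per array, WT in grey and Klf3-/- in red, with the marker shape giving the mouse number. The mast cell list peaks in mouse 2 of each genotype (4111 and 8501), the macrophage list in Klf3-/- mouse 3 (29366) and the stromal list in Klf3-/- mouse 2 (28513).

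Beyond the 10 enzymes, 44 of 52 listed genes of the pathway were measured. Of these, 27 were higher in Klf3-/- and 17 lower, their median difference was 0.10 log2 units, and none passed over all probe sets in limma. At an unadjusted p under 0.05, 3 of the 44 were higher and 0 lower, a share near the 6.09% of all genes. With the replicate number as a block 8 of the 44 were called, where 7.94% of all genes were. The 3 were Dpep1, Ptgr1 and Pla2g5, and for each the lowest Klf3-/- value exceeded the highest WT value, also as deposited. In all, 4 of the 44 were higher and 2 lower without overlap, where 11.4% of all genes did not overlap. On the deposited values Dpep1 and Ptgr1 were still at an unadjusted p under 0.05 and Pla2g5 was not.

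Genes that convert or break down leukotrienes were higher in 6 of 6 cases, with a median log2 fold change of 0.58. Dpep1, a dipeptidase that turns leukotriene D4 into leukotriene E4, read 8.11, 8.28 and 9.02 log2 units in WT mice 1 to 3 and 9.43, 10.08 and 9.37 in Klf3-/- mice 1 to 3. The difference was 1.16 log2 units with a standard error of 0.31 (adjusted p = 0.834, limma) and ran from 0.93 to 1.43 when each array was left out. Ptgr1, which inactivates leukotriene B4 and reduces breakdown products of prostaglandins, read 6.15, 6.40 and 5.75 in WT and 6.96, 6.93 and 7.56 in Klf3-/-. The difference was 1.05 log2 units with a standard error of 0.26 (adjusted p = 0.781, limma) and ran from 0.85 to 1.18 when each array was left out. Both were at an unadjusted p under 0.05 whichever array was left out. The other members of this group were Ggt5 (0.54), which cleaves leukotriene C4, Mgst2 (0.62), Cyp4f18 (0.15) and Mgst3 (0.11).

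Of 12 other phospholipases A2, 5 were higher and 7 lower. Pla2g5, a secreted phospholipase, read 4.23, 3.98 and 4.01 in WT and 4.59, 4.63 and 4.75 in Klf3-/-. All 6 values lay below the background level, and the log2 fold change was 0.58 (adjusted p = 0.862, limma). Pla2g10, also below that level, was lower in every Klf3-/- array, with a log2 fold change of -0.25 (adjusted p = 0.949, limma), and overlapped as deposited. All 4 other lipoxygenases lay below the background level on average. Among them was Alox15, which is also on the eosinophil marker list, at 4.06 ± 0.53 for WT against 4.03 ± 0.14 for Klf3-/- (SD, n = 3 per genotype).

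The 3 leukotriene receptors measured were all higher, and none passed. Ltb4r1, the high-affinity leukotriene B4 receptor, read 6.43, 6.13 and 6.29 in WT and 6.66, 6.60 and 6.86 in Klf3-/-, with no overlap and a log2 fold change of 0.42 (adjusted p = 0.901, limma), and it overlapped as deposited. Cysltr1, the leukotriene D4 receptor, read 7.16, 7.56 and 8.81 in WT and 8.35, 8.13 and 9.50 in Klf3-/-. The Klf3-/- array was the higher in each of the 3 pairs, by 1.20, 0.57 and 0.69, although the genotypes overlapped after normalisation and not as deposited, and the log2 fold change was 0.82 (unadjusted p = 0.155, and 0.0108 with the replicate block, where the adjusted p was 0.627, limma). Cysltr2 lay below the background level on average, with a log2 fold change of 0.69.

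Prostanoid receptors split evenly, 4 of 8 being higher and 4 lower. The smallest p was that of Ptger3, a prostaglandin E2 receptor that lay below the background level on average, with a log2 fold change of 0.74 (adjusted p = 0.910, limma). Its 3 pairs differed by 0.63, 0.64 and 0.94, and its unadjusted p went from 0.0684 to 0.00993 with the replicate block (adjusted p = 0.625, limma). Ptger4, another prostaglandin E2 receptor, had -0.16, and Ptgdr2, the prostaglandin D2 receptor of eosinophils and type 2 lymphocytes, had -0.20 from 5.34 ± 0.07 for WT against 5.13 ± 0.27 for Klf3-/- (SD, n = 3 per genotype). Of 6 other terminal prostanoid synthases 4 were higher. Ptgds, the lipocalin-type prostaglandin D synthase, was lower in every Klf3-/- array after normalisation but not as deposited, and it lay below the background level (-0.35, adjusted p = 0.910, limma). With the mean of all its probe sets the log2 fold change of Ptgds was -0.87 (adjusted p = 0.798, limma) and its unadjusted p was under 0.05. Of 5 genes of transport and prostaglandin breakdown 4 were higher, among them the leukotriene C4 exporter Abcc1 (0.70, adjusted p = 0.910, with an unadjusted p of 0.0884 that was 0.0494 with the replicate block) and the prostaglandin-degrading dehydrogenase Hpgd (0.69, adjusted p = 0.946, limma). Hpgd read 10.96 in Klf3-/- mouse 2, 9.69 and 8.75 in the other Klf3-/- mice and 8.72 to 9.32 in WT, so it peaked in the same array as Ptges.

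**Figure D5:**
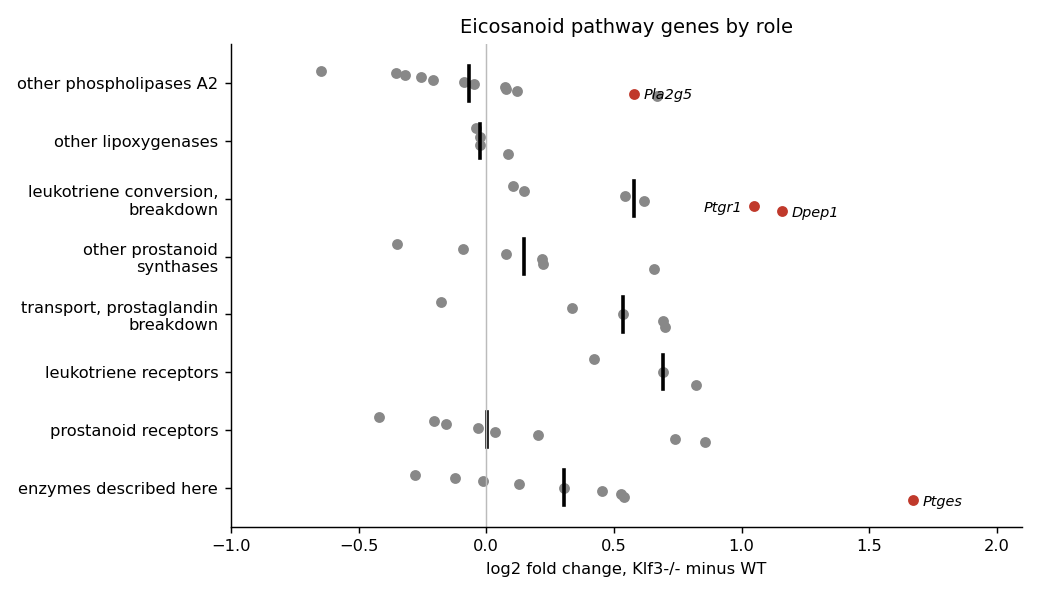
Log2 fold change, Klf3-/- minus WT, of 44 pathway genes in 7 groups by role and of the 9 enzymes described here. Points are genes, black bars are medians, and red points have an unadjusted p under 0.05 in limma, which no gene kept after adjustment. Dpep1 (1.16), Ptgr1 (1.05), Pla2g5 (0.58) and Ptges (1.67) are the red points.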

How the data were processed

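The authors hybridised RNA, after amplification with a GeneChip 3′ IVT Pico kit, to GeneChip HT MG-430PM arrays and processed them in Partek Genomics Suite v7. A legend names RMA without saying which steps were run. The authors deposited linear intensity values for 45037 probe sets in 6 columns, each from a different mouse, all of them used here. Of these probe sets 28898 had 1 gene symbol in the platform annotation, 551 several and 15588 none. Symbols that had changed were matched through a RefSeq gene table (GRCm38.p6).

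The log2 of each value was taken and the arrays were quantile-normalised. Genotypes were compared with limma 3.58.1 (lmFit, eBayes) in R 4.3.3, fitting genotype alone, with Benjamini-Hochberg adjustment over all probe sets and a threshold of 0.05. The methods name a two-way ANOVA whose second factor is not given. Single genes were also compared by exact permutation tests (SciPy 1.17.1). The brightest probe set of a gene, by its mean over 6 arrays, stood for it. The enzymes, the pathway lists and the marker lists were chosen with earlier results of these data known. All 10 enzymes were to be named, and of each pathway list the genes with an unadjusted p under 0.05 or no overlap, or else those with the smallest p.

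The labels describe litter-matched mice. After each genotype's mean was taken off, r was 0.17, 0.23 and 0.21 between WT and Klf3-/- arrays with the same number. For other pairs it was -0.18 to -0.01. Taking off a mean of only 3 arrays forces other pairs down where same-number pairs lie above 0. The contrast is thus partly built in and does not settle whether the arrays are paired. The replicate number was used as a block in an alternative fit only. Other alternatives were the values as deposited, median centring, analyses of variance without moderation, trend and robust fitting, filters on dim and cross-hybridising probe sets, the mean of a gene's probe sets and leaving out each array. The number of arrays limits the precision. qPCR, flow cytometry and ChIP were not analysed here.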

Additional observations from a re-analysis of the deposited data

How the results depend on the processing

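No probe set passed an adjusted p under 0.05 in any alternative. Of 45037 probe sets, 2475 were at an unadjusted p under 0.05 in the reported fit and 1212 on the values as deposited. The number was 1517 among probe sets above the olfactory receptor level. It was 1056 of 17097 genes when the probe sets of a gene were averaged. Fewer were tested in these last settings, so their lower counts are not by themselves a smaller share. Ptges kept its direction in every alternative, with adjusted p-values of 0.578 to 1, but it was no longer at an unadjusted p under 0.05 in the analyses of variance without moderation, where 0 of the 9 enzymes were called, with or without the replicate block. When each array was left out 0 to 2 of the 9 were called. Of the other 44 pathway genes 8 were called with the replicate block in limma, 5 in the one-way analysis of variance, 5 with the mean of a gene's probe sets and 4 to 6 when each array was left out. Beside these, the block called 3212 of all 45037 probe sets and the one-way analysis of variance 2240. Averaged probe sets gave the 1056 of 17097 genes above, and leaving out an array 2031 to 2694 probe sets. Dpep1 and Ptgr1 were called in each of these settings but not in the two-way analysis of variance with the replicate block. That fit called Pla2g5, Pla2g7, Ltb4r1 and Ptger3, and 2535 of all probe sets. The block otherwise kept every call on the 9 enzymes in limma. Lta4h turned to 0.22 as deposited and 0.0081 after median centring, and ran from -0.17 to 0.17 when each array was left out. Ptgs2 turned to 0.0846 as deposited and 0.0039 with the mean of its probe sets, and ran from -0.5354 to 0.42. The ranges of Alox5ap (-0.0171 to 0.62), Hpgds (-0.60 to 0.08) and Tbxas1 (-0.16 to 0.31) also crossed 0. As deposited the median over all probe sets was 0.13 and that of the 9 enzymes 0.52. Pathway genes below the olfactory receptor level gave no value under the filter on dim probe sets. The causes were not tested.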
